A study of Mus musculus with 6 samples.

Results

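Keratin-associated proteins form the matrix in which the keratin filaments of the hair shaft lie, and their mouse genes are named Krtap with a family number and a member number. The genes described here are all those measured by a probe whose RefSeq transcript carries a mouse symbol beginning with Krtap and a digit. They were 40 genes, read by 44 probes, of 18217 genes named by a probe on the array. The RefSeq gene table lists 56 genes with such symbols, and 16 of them had no matching probe. RNA came from the epidermis of newborn mice at postnatal day 0, in 3 AhRCA mice and 3 WT mice, and each RNA was hybridised to 1 Agilent 1-colour array labelled with Cy3. AhRCA mice express a permanently active AhR (the aryl hydrocarbon receptor, a ligand-activated transcription factor) from the keratin 14 promoter, which is active in basal keratinocytes and in the outer root sheath of the hair follicle. WT mice were littermates, and each of 3 independent samplings held 1 AhRCA mouse and 1 WT mouse, so that arrays with the same number form a litter pair. The strain is labelled as mixed for both genotypes. The labels do not say how epidermis was separated from dermis or how many transgenic lines were used.

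Keratin-associated proteins are made late in hair cell differentiation, after the hair keratins, in the cortex and cuticle of the shaft. They are small proteins of 3 composition classes: high sulfur proteins and ultrahigh sulfur proteins are rich in cysteine and are joined to keratins by disulfide bonds, and glycine-tyrosine proteins are poor in cysteine. Most of the genes have a single exon and lie in clusters, and in mouse the homeobox factor Hoxc13 acts on several of them. Classes were assigned here by family number. The 40 genes comprised 12 high sulfur genes (families 1, 2, 3, 12, 13, 14, 15, 24 and 26), 12 ultrahigh sulfur genes (families 4, 5, 9 and 17) and 13 glycine-tyrosine genes (families 6, 7, 8, 19, 20 and 21). The other 3, Krtap16-3, Krtap31-1 and Krtap31-2, were left unclassed: human family 16 is a high sulfur family, but mouse Krtap16-3 lies among glycine-tyrosine genes on chromosome 16.

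Promoters are shown because 15 of the 31 Krtap genes tested fell together in AhRCA epidermis (adjusted p under 0.05, limma, where 1.65% of all genes tested fell) while Krtap4-6, which holds the same promoter element, did not pass the test. Each sequence below runs 5′ to 3′ on the gene's strand from 250 bases before to 50 bases after the RefSeq start on GRCm38.p6, and capitals mark TATAAA, the core of a TATA box. Krtap5-2, Krtap2-4 and Krtap6-1 had the lowest adjusted p of the ultrahigh sulfur, high sulfur and glycine-tyrosine genes, and Krtap4-6 had the fold change nearest 0. They lie at chr7:142175956-142176255 (minus strand), chr11:99614797-99615096 (minus strand), chr16:89031449-89031748 (plus strand) and chr11:99665911-99666210 (minus strand), in the order in which they are named.
Krtap5-2: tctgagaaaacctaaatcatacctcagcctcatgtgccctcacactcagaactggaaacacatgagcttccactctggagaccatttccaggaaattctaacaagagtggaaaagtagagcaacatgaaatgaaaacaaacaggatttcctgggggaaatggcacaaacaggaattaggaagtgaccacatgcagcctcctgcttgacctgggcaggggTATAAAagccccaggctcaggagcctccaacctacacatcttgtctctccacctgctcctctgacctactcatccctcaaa
Krtap2-4: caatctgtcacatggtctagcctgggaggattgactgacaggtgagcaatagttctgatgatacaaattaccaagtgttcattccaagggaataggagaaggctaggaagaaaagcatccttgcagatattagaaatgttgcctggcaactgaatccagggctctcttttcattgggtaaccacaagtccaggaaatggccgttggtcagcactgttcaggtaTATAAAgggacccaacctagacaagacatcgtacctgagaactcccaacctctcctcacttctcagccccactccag
Krtap6-1: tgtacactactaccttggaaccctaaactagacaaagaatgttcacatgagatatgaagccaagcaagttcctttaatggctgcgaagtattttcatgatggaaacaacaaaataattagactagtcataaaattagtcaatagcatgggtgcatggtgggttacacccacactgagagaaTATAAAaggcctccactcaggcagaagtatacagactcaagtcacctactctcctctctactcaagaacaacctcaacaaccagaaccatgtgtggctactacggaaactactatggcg
Krtap4-6: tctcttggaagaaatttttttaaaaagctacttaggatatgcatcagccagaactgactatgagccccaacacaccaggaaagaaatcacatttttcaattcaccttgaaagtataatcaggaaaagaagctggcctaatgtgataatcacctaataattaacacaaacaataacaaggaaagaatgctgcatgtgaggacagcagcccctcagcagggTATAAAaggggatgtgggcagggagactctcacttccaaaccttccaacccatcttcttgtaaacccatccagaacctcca
A promoter was found in the table for 37 of the 40 genes. TATAAA, searched on both strands, was in 29 of these 37 promoters (78.4%), against 14.2% of 27025 mouse promoters of the same length. On the gene's own strand and 20 to 40 bases before the start, the usual place of a TATA box, it began in 21 of the 37 (56.8%, at positions -37 to -27), against 2.22% of all promoters. In Krtap6-1 the match lies farther upstream of the annotated start. Genes that fell and genes that did not pass both held the element often: 14 of 15 called genes and 10 of 13 tested but uncalled genes held TATAAA, and no test of that difference was run. CTTTGAA, a sequence bound by the hair matrix factor Lef1 and its relatives, was in 6 of 11 high sulfur promoters (54.5%), in 0 of 11 ultrahigh sulfur promoters and in 1 of 12 glycine-tyrosine promoters, against 5.27% of all promoters. Its variant CTTTGTT was in 16.2% of the 37, against 5.79% of all promoters. The Hoxc13-like sequence TTTATNG was in 13.5% of them, against 11.3% of all. No other form of a Hoxc13 site was searched, so the share of promoters with any such site is not known here. GCGTG, the core of the AhR response element, was in 4 of the 37 (10.8%), against 32.5% of all promoters, and the longer TTGCGTG, which contains it, was in 0 of the 37, against 1.16%. All these motifs were searched on both strands, and the promoters compared were not matched for base composition. A match is a stretch of letters in this window, and binding was not measured.

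Values are normalized log2 intensities: 0 is the 75th percentile of the probes on an array, and 1 unit is a 2-fold difference. A probe's level depends on its sequence, so levels are compared between arrays and never between genes. On the 6 arrays 56.2% to 61.3% of spots were well above background, 0 spots were saturated, and the 75th percentile of the intensity was 627 to 754. Arrays 1 and 2 of each genotype lay on 1 slide and array 3 of each on another, so litter pair 3 and the second slide cannot be told apart, and both genotypes are balanced over slides. Cyp1a1, an enzyme gene that AhR switches on, had 3.32, 3.68 and 5.04 on AhRCA arrays 1 to 3, against -3.96, -3.03 and -2.18 on WT arrays 1 to 3 (log2 fold change 7.07 ± 0.58 SE, adjusted p = 0.00470). Ahr itself had 1.76, 1.77 and 1.83 in AhRCA epidermis and 2.31, 2.32 and 2.21 in WT epidermis (adjusted p = 0.0653), and what its probe reads of the transgene is not known. Of 6 known AhR target genes tested 5 were higher (0.53% of all genes tested were), with a median log2 fold change of 3.74. As to the tissue, all 7 basal and all 9 spinous and granular keratinocyte genes found on the array passed the detection filter. So did 6 of 7 fibroblast, 5 of 6 melanocyte and 4 of 5 erythroid genes. Of dermal papilla genes 6 of 14 passed, and of skeletal muscle genes 2 of 6. The purity of the epidermis was not tested.

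Fewer Krtap probes were detected on each AhRCA array than on any WT array. Of the 44 probes, 26, 25 and 32 were well above background on AhRCA arrays 1, 2 and 3, against 35, 36 and 35 on WT arrays 1, 2 and 3. AhRCA 3 came closest to the WT arrays. Of these probes 25 were well above background on all 6 arrays and 7 on none. A further 12 probes (27.3%) were detected on more WT than AhRCA arrays and 0 on more AhRCA than WT arrays, where the shares over all probes of the array were 6.31% and 4.45%. Among the 12 ultrahigh sulfur probes, 10, 10 and 12 were detected in AhRCA epidermis and 12 on each array in WT epidermis. High sulfur probes numbered 14, of which 8, 8 and 11 were detected in AhRCA epidermis and 12 on each array in WT epidermis. Glycine-tyrosine probes were detected least often in both genotypes, with 7, 6 and 8 of 15 in AhRCA epidermis and 10 on each array in WT epidermis. Under the scanner's looser flag, a signal positive and significant against background, the AhRCA arrays held 36, 37 and 41 of the 44 probes and the WT arrays 40, 43 and 42, so on that flag AhRCA 3 overlapped the WT range.

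**Figure D1:**
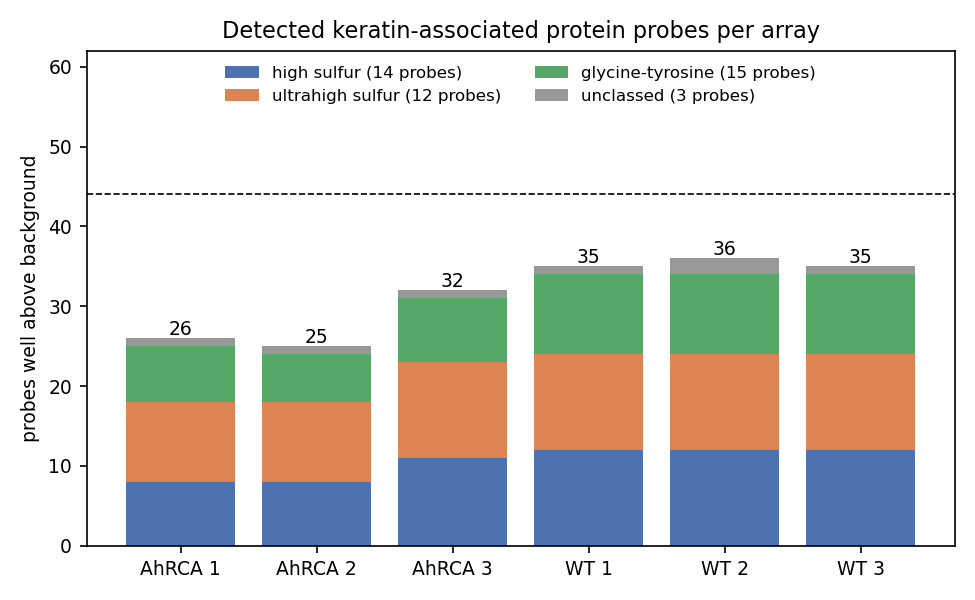
Number of Krtap probes well above background on each array, stacked by class, with the AhRCA arrays to the left of the WT arrays, the total above each bar and a dashed line at all 44 probes. The AhRCA arrays reach 25 to 32 of 44 probes over all classes and the WT arrays 35 or 36.

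Krtap genes of all 3 named classes fell in AhRCA epidermis, and 0 rose. Of 31 Krtap genes detected on at least 3 arrays, 15 were lower in AhRCA than in WT epidermis by limma at an adjusted p under 0.05 (p-values adjusted over 12824 genes by Benjamini-Hochberg), where 1.65% of all genes tested were lower. None was higher, either after adjustment or at an unadjusted p under 0.05 (0.53% and 4.62% of all genes tested were higher by these rules). In 13 of the 15, detected on at least 1 array of each genotype, the differences were between -2.50 and -1.60 on the log2 scale (SE 0.23 to 0.42), or 3.03-fold to 5.67-fold lower in AhRCA epidermis. Of these 13, 10 were detected on all 6 arrays. Krtap1-5, Krtap2-4 and Krtap5-2 (the 5.67-fold gene) were detected on 1 AhRCA array each, so their fold changes rest partly on signals near background. With normexp background correction their log2 fold changes were -1.01, -0.74 and -1.13. Krtap14 and Krtap19-9b were detected on no AhRCA array and were at least 2.28-fold and 2.87-fold lower. Adjusted p over the 15 was 0.0136 to 0.0480. The median log2 fold change of the 31 genes was -2.09 (-1.34 with normexp background correction), against 0.0013 for all genes tested, and 29 of the 31 values were negative, against 49.6% of all genes. At an unadjusted p under 0.05, 28 of the 31 were lower, against 7.57% of all genes. In 25 of the 31, all 3 AhRCA values lay below all 3 WT values, which was so for 8.84% of all genes. In bulk RNA, fewer hair-forming cells and less Krtap RNA per cell cannot be told apart.

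Some genes that missed the threshold were close to it: 7 had adjusted p of 0.0526 to 0.0830 and log2 fold changes of -2.29 to -1.68. A gene passed the detection filter through the WT arrays in part: 30 of the 31 were detected on all 3 WT arrays, while 3 were detected on no AhRCA array and 6 on 1. Among the 22 detected on all 6 arrays, 10 were called lower and the median log2 fold change was -2.05. With genes measured only in WT epidermis set at their bound, the median over the 31 was -1.98. The number of calls rested on single arrays: it was 0 without AhRCA 1, 0 without AhRCA 2, 1 without WT 2 and 3 without WT 3 (0.585%, 0.405%, 0.32% and 1.09% of all genes, limma). Without AhRCA 3 and without WT 1 it was 11 each (0.897% and 1.15% of all genes). At an unadjusted p under 0.05 it was 25 to 28 in each fit without 1 array, against 5.62% to 8.76% of all genes, and the median log2 fold change stayed between -2.30 and -1.81 when any 1 array was left out.

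**Figure D2:**
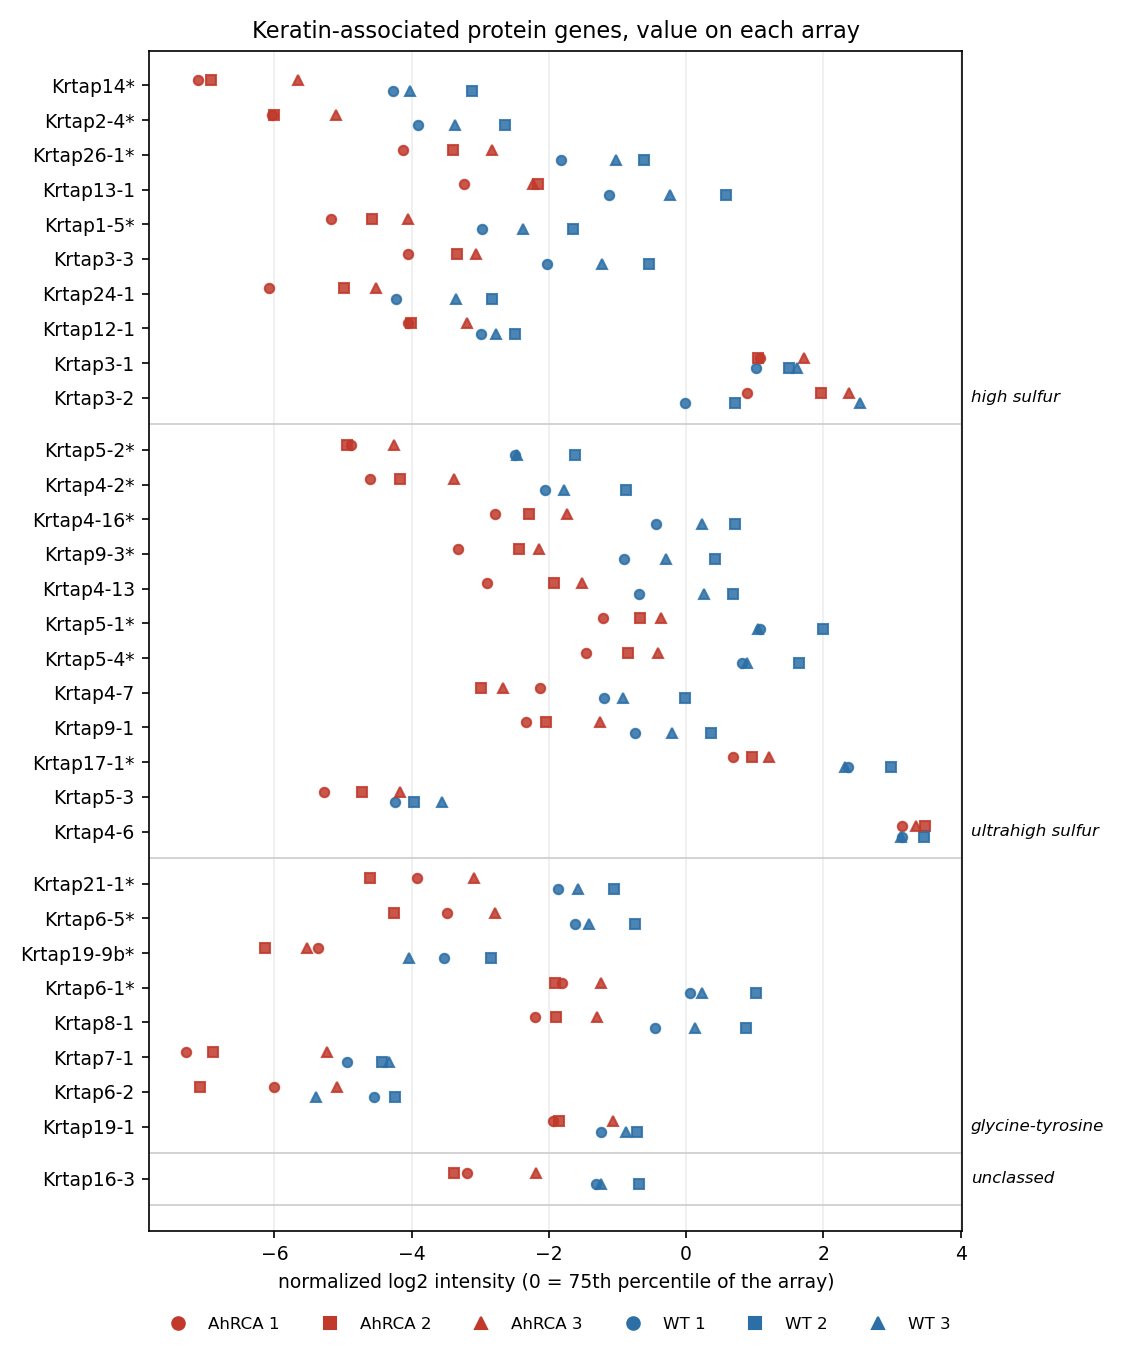
Normalized log2 intensity of each of the 31 tested Krtap genes on the 3 AhRCA arrays (red) and the 3 WT arrays (blue), by class, with an asterisk after genes at an adjusted p under 0.05 and marker shapes giving the litter pair. AhRCA points lie left of all WT points in 25 genes, and Krtap3-1, Krtap3-2 and Krtap4-6 are among those where the genotypes overlap; levels are not comparable between genes.

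All 12 ultrahigh sulfur genes on the array were tested, and 7 fell, with a median log2 fold change over the 12 of -2.07. Krtap5 genes encode ultrahigh sulfur proteins found in the cuticle of the human hair shaft, and 3 of the 4 tested here, all on chromosome 7, were called. Krtap5-2 had -4.89, -4.94 and -4.26 on AhRCA arrays 1 to 3, against -2.49, -1.61 and -2.47 on WT arrays 1 to 3, and was detected on 1 AhRCA array. Krtap5-1 had -1.22, -0.68 and -0.36 in AhRCA epidermis and 1.08, 1.99 and 1.04 in WT epidermis. Krtap5-4 had -1.45, -0.85 and -0.41 in AhRCA epidermis and 0.81, 1.64 and 0.89 in WT epidermis. In all 3 genes the highest AhRCA value lay more than 1 log2 unit below the lowest WT value. Krtap5-2 had the lowest adjusted p of the Krtap genes, 0.0136, and a log2 fold change of -2.50 ± 0.30 SE. For Krtap5-1 the log2 fold change was -2.12 (adjusted p = 0.0287) and for Krtap5-4 it was -2.02 (adjusted p = 0.0349). These genes resemble each other in sequence, so their probes may share transcripts, and probe sequences were not used here. The fourth member, Krtap5-3, had -5.28, -4.73 and -4.17 in AhRCA epidermis and -4.24, -3.96 and -3.56 in WT epidermis, where the genotypes overlapped by 0.06 log2 units (log2 fold change -0.81, adjusted p = 0.343).

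Krtap4 and Krtap9 genes, whose human counterparts are expressed in the hair cortex or cuticle, lie on chromosome 11. Krtap4-2 had -4.61, -4.17 and -3.38 in AhRCA epidermis, against -2.05, -0.87 and -1.77 in WT epidermis. Krtap4-16 had -2.79, -2.29 and -1.74 in AhRCA epidermis, against -0.45, 0.72 and 0.24 in WT epidermis. Krtap9-3 had -3.33, -2.43 and -2.15 in AhRCA epidermis, against -0.90, 0.43 and -0.29 in WT epidermis. The genotypes were separated in each, by log2 fold changes of -2.49 (adjusted p = 0.0356), -2.44 (adjusted p = 0.0274) and -2.38 (adjusted p = 0.0457) for Krtap4-2, Krtap4-16 and Krtap9-3. Krtap17-1, whose human counterpart is a cuticle gene, had 0.68, 0.96 and 1.21 in AhRCA epidermis and 2.35, 2.99 and 2.31 in WT epidermis. Its log2 fold change of -1.60 ± 0.23 SE (adjusted p = 0.0243) was the smallest in size among the called genes. Krtap4-13 (log2 fold change -2.20, adjusted p = 0.0745), Krtap4-7 (-1.89, adjusted p = 0.0535) and Krtap9-1 (-1.68, adjusted p = 0.0830) were not called, although their genotypes did not overlap.

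Krtap4-6 had the difference nearest 0 of all 31 genes. Its probe had 3.15, 3.49 and 3.35 on AhRCA arrays 1 to 3, against 3.14, 3.47 and 3.12 on WT arrays 1 to 3. The values overlapped and differed by 0.09 ± 0.15 SE (adjusted p = 0.999). Krtap4-6 was read by 1 probe, and whether that probe reads only Krtap4-6 was not tested. Its promoter, shown above, holds TATAAA at position -31, as does that of Krtap5-2.

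Of 12 high sulfur genes on the array 10 were tested, 4 fell, and the median log2 fold change was -2.24 (-0.72 with normexp background correction, an alternative that fits the background from the spot and local background signals). Under normexp Krtap26-1 kept its call, while Krtap1-5 (log2 fold change -1.01, adjusted p = 0.0717), Krtap2-4 (-0.74, adjusted p = 0.0834) and Krtap14 (-0.70, adjusted p = 0.107) lost theirs. Krtap14, known in mouse also as Pmg-1, had -7.11, -6.93 and -5.66 in AhRCA epidermis and -4.27, -3.12 and -4.02 in WT epidermis. Krtap2-4, of a family expressed in the human hair cortex, had -6.04, -6.01 and -5.10 in AhRCA epidermis and -3.90, -2.64 and -3.37 in WT epidermis. In both genes the genotypes did not overlap. On none of the AhRCA arrays was Krtap14 well above background, so AhRCA epidermis was at least 2.28-fold lower (measured log2 fold change -2.76, adjusted p = 0.0367). Such bounds set the mean WT value against the lowest well-detected signal of the AhRCA arrays or the probe's own signal, whichever is higher on each array. Krtap2-4 was detected on 1 AhRCA array and fell by 2.41 on the log2 scale (adjusted p = 0.0331). Krtap26-1, a cuticle gene in human, had -4.13, -3.39 and -2.82 in AhRCA epidermis, against -1.82, -0.61 and -1.02 in WT epidermis (log2 fold change -2.30, adjusted p = 0.0480). Krtap1-5, of a cortex family in human, had -5.17, -4.57 and -4.05 in AhRCA epidermis, against -2.98, -1.65 and -2.38 in WT epidermis (log2 fold change -2.26, adjusted p = 0.0465). The highest AhRCA value lay below the lowest WT value by 1.0 log2 units for Krtap26-1 and 1.08 for Krtap1-5.

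Among uncalled high sulfur genes, Krtap13-1 and Krtap3-3 had log2 fold changes of -2.29 (adjusted p = 0.0739) and -2.22 (adjusted p = 0.0536). Krtap24-1 (-1.72, adjusted p = 0.174) and Krtap12-1 (-1.0, adjusted p = 0.139) differed less. In these 4 genes the genotypes did not overlap. Krtap12-1 was the only tested gene on chromosome 10, where a further Krtap cluster lies.

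Krtap3-1 and Krtap3-2 were the high sulfur exceptions, and Krtap3-1 depended on the probe. The brightest of its 3 probes, which stood for the gene in the fit, had 1.07, 1.05 and 1.72 in AhRCA epidermis, against 1.01, 1.50 and 1.62 in WT epidermis (log2 fold change -0.10, adjusted p = 0.999). The second probe had -2.08, -1.23 and -1.01 in AhRCA epidermis, against 0.18, 1.60 and 0.91 in WT epidermis. The dimmest had -3.99, -3.23 and -3.18 in AhRCA epidermis, against -1.43, -0.05 and -1.26 in WT epidermis. The genotypes overlapped on the brightest probe and were separated by more than 1 log2 unit on the others. Fitted probe by probe, the log2 fold changes of the second and the dimmest were -2.34 and -2.56 (adjusted p = 0.0729 and 0.0523 over 24005 probes), and by that fit 6 of 35 Krtap probes were lower (0.812% of all probes). Krtap3-2, with 1 probe, had 0.89, 1.97 and 2.38 in AhRCA epidermis, against -0.02, 0.71 and 2.53 in WT epidermis. Its log2 fold change was 0.67 ± 0.69 SE (adjusted p = 0.941), the largest positive value among the 31 genes, and its sign differed between litter pairs (0.91, 1.25 and -0.16 in pairs 1, 2 and 3).

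Of 13 glycine-tyrosine genes 8 were tested, 4 fell, and the median log2 fold change was -2.04 (-1.0 with normexp, where Krtap19-9b lost its call with an adjusted p of 0.121). All lie on chromosome 16. Krtap6-1, of a family expressed in the hair cortex of sheep and human, had -1.81, -1.91 and -1.25 in AhRCA epidermis, against 0.05, 1.02 and 0.23 in WT epidermis. Krtap6-5 had -3.49, -4.26 and -2.79 in AhRCA epidermis, against -1.61, -0.74 and -1.42 in WT epidermis. Krtap21-1 had -3.92, -4.60 and -3.09 in AhRCA epidermis, against -1.87, -1.04 and -1.57 in WT epidermis. In these 3 genes AhRCA 2 was the lowest array, in Krtap6-1 by little. AhRCA 1 was lowest in all called high sulfur genes. In Krtap2-4 that was by little (-6.04, against -6.01 on AhRCA 2), and Krtap14 was well above background on neither array. Krtap5-2, an ultrahigh sulfur gene, also had AhRCA 2 lowest (-4.94, against -4.89 on AhRCA 1). The log2 fold change was -2.09 for Krtap6-1 (SE 0.30, adjusted p = 0.0242), -2.25 for Krtap6-5 (adjusted p = 0.0463) and -2.38 for Krtap21-1 (adjusted p = 0.0392). Krtap19-9b had -5.36, -6.14 and -5.53 in AhRCA epidermis, against -3.53, -2.84 and -4.03 in WT epidermis. On no AhRCA array was it well above background, and AhRCA epidermis was at least 2.87-fold lower (measured log2 fold change -2.21, adjusted p = 0.0298).

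The remaining glycine-tyrosine genes were read less clearly. Krtap8-1, a cortex gene in human, had -2.20, -1.90 and -1.30 on its brighter probe in AhRCA epidermis, against -0.45, 0.88 and 0.12 in WT epidermis (log2 fold change -1.98, adjusted p = 0.0561). Its other probe had -2.94, -2.43 and -2.10 in AhRCA epidermis, against -0.84, 0.65 and -0.29 in WT epidermis. Both probes separated the genotypes. Krtap19-1 had -1.94, -1.85 and -1.07 on its brighter probe in AhRCA epidermis, against -1.23, -0.71 and -0.87 in WT epidermis (log2 fold change -0.68, adjusted p = 0.358). Its dimmer probe had -4.77, -5.13 and -3.50 in AhRCA epidermis, against -2.64, -1.86 and -2.19 in WT epidermis (log2 fold change -2.24). Of the 2 probes of Krtap19-1, the dimmer separated the genotypes and the brighter did not. Krtap7-1 was detected on all 3 WT arrays and on no AhRCA array, and AhRCA epidermis was at least 1.34-fold lower (adjusted p = 0.157). Krtap6-2 had -6.01, -7.08 and -5.08 in AhRCA epidermis, against -4.55, -4.25 and -5.40 in WT epidermis, values that overlapped (log2 fold change -1.32, adjusted p = 0.383).

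**Figure D3:**
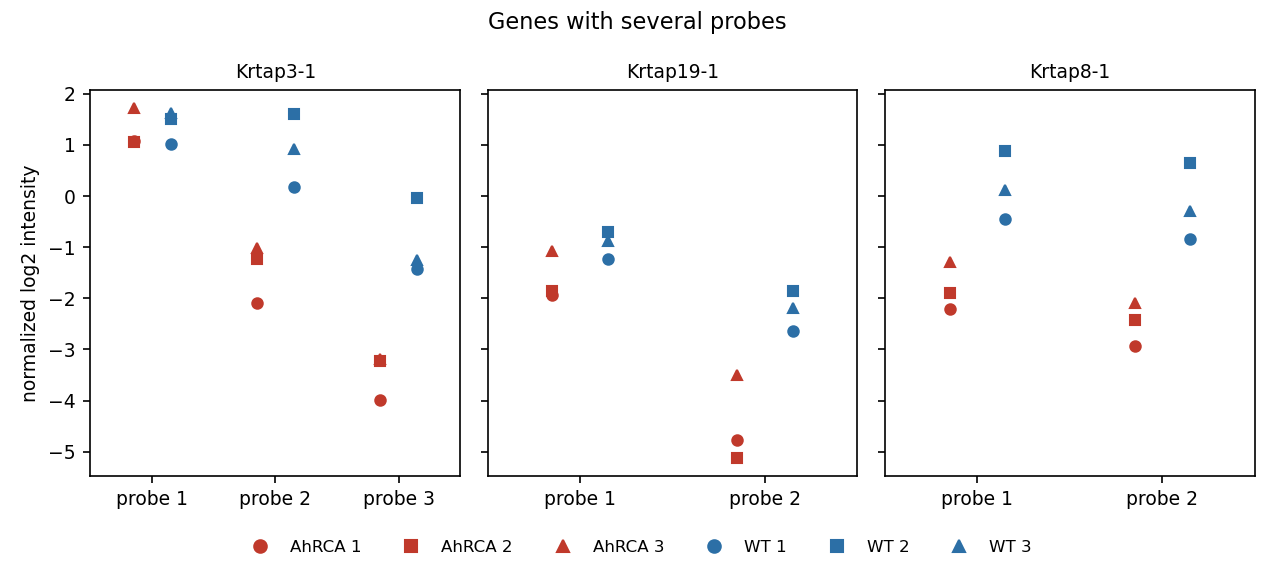
Normalized log2 intensity on the AhRCA arrays (red) and the WT arrays (blue) for each probe of Krtap3-1, Krtap19-1 and Krtap8-1, the genes with several probes, ordered from the brightest probe (probe 1) to the dimmest, with marker shapes giving the litter pair. The genotypes overlap on probe 1 of Krtap3-1 and of Krtap19-1 and are separated on the other probes.

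Unclassed Krtap16-3 had -3.19, -3.39 and -2.18 in AhRCA epidermis, against -1.31, -0.69 and -1.23 in WT epidermis. These values did not overlap, and its adjusted p was 0.0526 (log2 fold change -1.84). The 9 genes that failed the filter were Krtap13, Krtap15 (Pmg-2 in mouse), Krtap19-2, Krtap19-3, Krtap19-4, Krtap19-5, Krtap20-2, Krtap31-1 and Krtap31-2. Of these 7 were above background on no array. Krtap31-1 was above background on WT 2 only, at -2.10 where its other values were between -6.94 and -5.96. Krtap19-2 was above background on WT 3 only, at -4.32 where its other values were between -7.20 and -6.78.

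In the main fit, class medians lay closer together than the litter pairs did. The share called was 7 of 12 ultrahigh sulfur, 4 of 10 high sulfur and 4 of 8 glycine-tyrosine genes, and the medians in that order were -2.07, -2.24 and -2.04. Across litter pairs the median of a class had an SD over the 3 pairs of 0.572 for ultrahigh sulfur, 0.556 for high sulfur and 0.763 for glycine-tyrosine genes. With normexp background correction the class medians lay farther apart, at -1.50, -0.72 and -1.0 in the same order. By chromosome, 3 of 4 genes on 7, 6 of 13 on 11 and 6 of 13 on 16 were called, with medians of -2.07, -2.20 and -2.09. No test between classes or chromosomes was run.

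The difference was seen in each litter pair and varied in size between pairs. The median AhRCA minus WT difference of the 31 genes was -1.88 in pair 1, -2.77 in pair 2 and -1.42 in pair 3, against 0.01, 0.03 and -0.04 for all genes tested. AhRCA was lower in all 3 pairs in 27 of the 31 genes, against 20.1% of all genes. Pair 2 held the most negative difference in 28 of the 31, against 2862 of 12821 over all genes. Arrays of both genotypes stood apart from the rest of their group. WT 2 was the highest of the 6 arrays in 26 of the 31 genes (83.9%, against 14.8% of all genes), and AhRCA 1 was the lowest in 20 (64.5%, against 11.4%). AhRCA 2 was the lowest in 5 of 8 glycine-tyrosine genes but in 2 of 12 ultrahigh sulfur and in 0 of 10 high sulfur genes, against 9.31% of all genes. Some of these ranks rest on small differences or on signals near background. Of the AhRCA arrays, AhRCA 3 was the highest in 27 of the 31, against 3997 of 12821 over all genes. With littermates as a block, 18 Krtap genes were lower (2.81% of all genes tested). That fit lost the calls of Krtap19-9b (adjusted p = 0.0607), Krtap21-1 (adjusted p = 0.0622) and Krtap6-5 (adjusted p = 0.0768), all glycine-tyrosine genes. It gained Krtap13-1 (adjusted p = 0.0119), Krtap3-3 (adjusted p = 0.0162), Krtap24-1 (adjusted p = 0.0296), Krtap4-13 (adjusted p = 0.0143), Krtap5-3 (adjusted p = 0.0396) and Krtap8-1 (adjusted p = 0.0405). A fit with slide as the block called 14 lower (2.91% of all genes). Within the first slide, with 2 arrays of each genotype, 1 gene was called (0.741% of all genes), Krtap7-1, which is not among the 15 (adjusted p = 0.0479). Krtap7-1 was well above background on no AhRCA array, so that call rests partly on signals near background. All 15 lost their calls within that slide, and 28 Krtap genes were lower at an unadjusted p under 0.05 (10.2% of all genes). For the difference between slides, 0 Krtap genes had an interaction of genotype and slide after adjustment (limma, 0.0078% of all genes) and 3 did at an unadjusted p under 0.05 (9.98% of all genes).

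**Figure D4:**
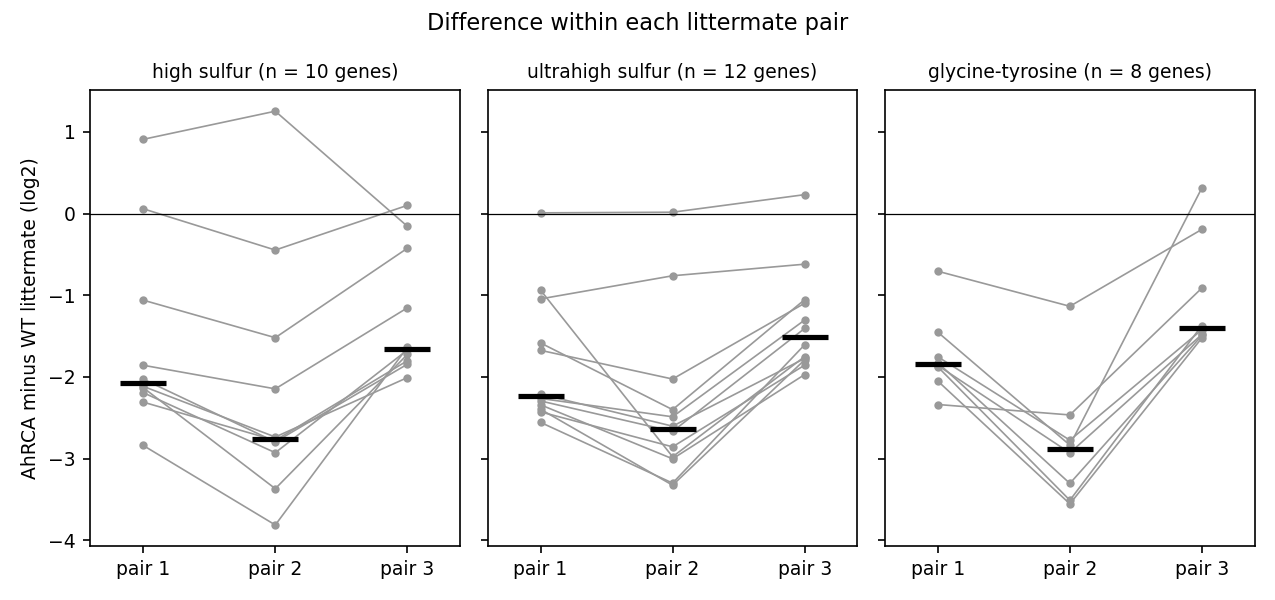
AhRCA minus WT in log2 units in each litter pair, 1 grey line for each tested gene of the 3 classes (10 high sulfur, 12 ultrahigh sulfur and 8 glycine-tyrosine), with black bars at the class medians. The class medians are lowest in pair 2, and the lines that change sign in pair 3 against both other pairs are those of Krtap3-2 and Krtap6-2.

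Hair shaft keratin genes shared their lowest and highest arrays with the Krtap genes. The median deviation of the 31 Krtap genes from each gene's mean over the 6 arrays was -1.39, -1.09 and -0.50 on AhRCA arrays 1 to 3 and 0.55, 1.64 and 0.97 on WT arrays 1 to 3. Type I hair keratins, the acidic filament partners, had -1.48, -0.63 and -0.64 on AhRCA arrays and 0.14, 1.66 and 0.84 on WT arrays. Type II hair keratins, the basic partners, had -1.39, -0.55 and -0.63 on AhRCA arrays and 0.15, 1.53 and 0.82 on WT arrays. In all 3 groups AhRCA 1 was lowest and WT 2 highest, while AhRCA 2 lay below AhRCA 3 only in the Krtap genes. Sebaceous gland genes, which are not hair shaft genes, had the same lowest and highest arrays. Their median deviation was -1.07 on AhRCA 1 and 0.88 on WT 2, with 0.86 on WT 3. Krt34 and Krt33b, type I hair keratins, fell by 2.19 and 1.06 on the log2 scale (adjusted p = 0.0414 and 0.0356), 2 of 5 type I genes called. The Krt33b value is that of its brightest probe. With its probes averaged the log2 fold change was -1.76 (adjusted p = 0.0187, limma). Of 4 type II genes 0 passed, and 3 were lower at an unadjusted p under 0.05 in limma: Krt87 and Krt86 had log2 fold changes of -1.95 and -1.82 (adjusted p = 0.0889 and 0.0713). Blocking on litter pairs, 4 of the 5 type I and 3 of the 4 type II genes were called lower. The shares of all genes tested were 1.65% called lower, 2.81% with that block, and 7.57% lower at an unadjusted p under 0.05 (limma).

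The other hair follicle gene lists below had smaller median differences. Of 7 genes of the inner root sheath and companion layer, the sleeve that guides the shaft, 1 was called lower, Krt75 (log2 fold change -1.42, adjusted p = 0.0475), and the median was -1.24. Blocking on litter pairs, 6 of these 7 were called. Over all genes tested, 1.65% were called lower without that block and 2.81% with it. At an unadjusted p under 0.05 (limma), 7.57% of all genes were lower and 4.62% higher. Of 10 genes listed as other hair shaft proteins 0 passed (6 lower and 1 higher at an unadjusted p under 0.05 in limma, and 6 lower when litter pairs formed a block), with a median of -1.20. Among them Tchhl1 was well above background on the WT arrays only and was at least 2.48-fold lower in AhRCA epidermis (adjusted p = 0.0543), and Crym had a log2 fold change of -1.61 (adjusted p = 0.0595). Hr, Liph, Lpar6 and Selenbp1, also in this list, had log2 fold changes of 0.21, -0.006, -0.25 and 0.78, and the list median includes them. The list was not restricted to structural proteins of the shaft. Of the hair matrix transcription factors 0 of 15 passed with or without the block (1 lower and 2 higher at an unadjusted p under 0.05 in limma), and their median was -0.12. Those with the differences farthest from 0 were Msx1 (log2 fold change -0.61, adjusted p = 0.403) and Bcl11b (0.48, adjusted p = 0.328). Hoxc13, which acts on Krtap genes in mouse, had -2.84, -3.37 and -2.29 in AhRCA epidermis, against -2.78, -2.24 and -2.15 in WT epidermis, values that overlapped (log2 fold change -0.44 ± 0.30 SE, adjusted p = 0.780).

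**Figure D5:**
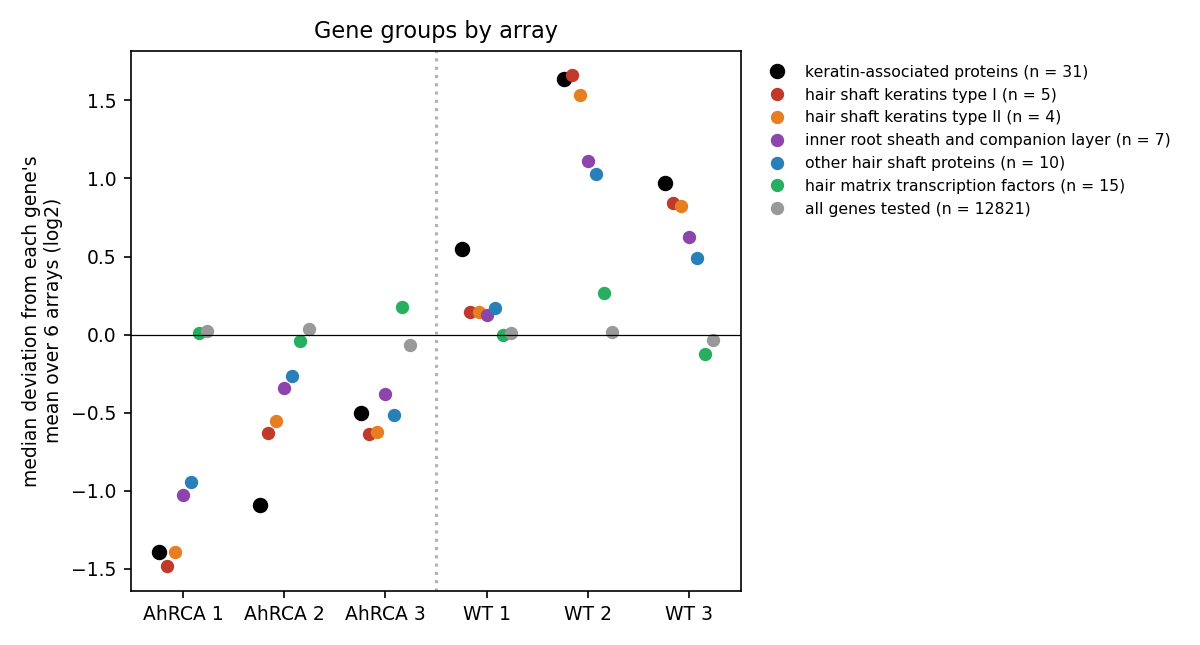
Median deviation from each gene's own mean over the 6 arrays, in log2 units, on the AhRCA arrays (left) and the WT arrays (right). Shown are Krtap genes, 4 other hair follicle lists (hair keratins of both types, inner root sheath and companion layer, other hair shaft proteins), hair matrix transcription factors and all genes tested. Krtap genes and the 4 lists are lowest on AhRCA 1 and highest on WT 2, while matrix transcription factors stay between -0.12 and 0.27. Sebaceous gland genes, not drawn, were also lowest on AhRCA 1 and highest on WT 2.

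Markers of other cell types were read beside these values. Of 9 sebaceous gland genes 7 fell (8 with the litter block), with a median log2 fold change of -1.37. The summed linear intensity of the 9, in units of the 75th percentile, was 64.8 to 66.6 on AhRCA arrays and 76.9 to 91.9 on WT arrays. Such sums follow the brightest probes of a list, here Fasn, whose log2 fold change was -0.07 (limma, adjusted p = 0.996). Of 13 genes of follicle stem cells and the outer root sheath 2 were lower, Lgr5 (log2 fold change -0.83, adjusted p = 0.0199) and Krt15 (-0.72, adjusted p = 0.0460), with a list median of -0.09. At an unadjusted p under 0.05 (limma), 3 of the 13 were lower and 1 was higher. The higher gene was Cd34 (log2 fold change 0.82, adjusted p = 0.164). With the litter block Lgr5 kept its call (adjusted p = 0.0227) and Krt15 did not (adjusted p = 0.0534). For basal keratinocytes 0 of 7 genes were called, and the summed level was 602 to 715 on AhRCA arrays and 561 to 675 on WT arrays. For spinous and granular keratinocytes 0 of 9 were called, with 1023 to 1209 on AhRCA arrays and 1096 to 1173 on WT arrays. Fibroblast genes (0 of 6 called) summed to 29.5 to 31.8 on AhRCA arrays and 29.9 to 36.0 on WT arrays. Dermal papilla genes (0 of 6 called) summed to 1.73 to 2.22 on AhRCA arrays and 1.59 to 2.40 on WT arrays. For melanocytes, 0 of 5 genes were called, with sums of 68.3 to 82.1 on AhRCA arrays and 60.3 to 87.6 on WT arrays. For erythroid cells 0 of 4 and for skeletal muscle 0 of 2 genes were called, with medians of -0.44 and -0.66. With the litter block 1 gene of each was lower, Slc4a1 of erythroid cells (adjusted p = 0.0461) and Myh8 of muscle (adjusted p = 0.0444). Cell cycle genes had a median of -0.11 with 0 of 10 called. At an unadjusted p under 0.05 (limma), 1 basal gene was higher and 1 gene each of the spinous, fibroblast, erythroid, muscle and cell cycle lists was lower, against 0 melanocyte and 0 dermal papilla genes. By that rule 7.57% of all genes tested were lower and 4.62% higher. After adjustment 1.65% of all genes were lower, and 2.81% with the litter block. Except for the sebaceous, stem cell and muscle lists, the ranges of the summed levels overlapped between genotypes. The part of any of these cell types in the Krtap difference was not tested.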

How the data were processed

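RNA of 6 newborn epidermis samples, 3 AhRCA and 3 WT, was measured on Agilent 1-colour arrays. Spot intensity was extracted by Agilent Feature Extraction 10.7.3.1, per the file headers, which subtracted background on each array and flagged detected spots. The authors' deposited value table holds log2 values; differences between its columns had a slope of 1 on the scanner log2 values, each probe was centred on its median, and its direction was that of the intensities. Its column medians were 0.0283, 0.0638 and -0.0710 for AhRCA 1 to 3 and -0.0705, -0.0495 and 0.0827 for WT 1 to 3.

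From the 45018 spots of an array 1639 control spots and 56 to 94 outlier spots were left out, spots of a probe were averaged, and the array's 75th percentile was subtracted on the log2 scale. RefSeq accessions named 26690 of 41174 probes with 1 symbol, and 14484 had none. A probe was kept where 3 or more of the 6 arrays had it well above background, and the probe with the highest mean stood for its gene. The 12824 genes, of which 3 lacked a value on some array, were fitted with limma 3.58.1 in R 4.3.3 (lmFit, eBayes, 2 group means, two-sided, Benjamini-Hochberg, threshold 0.05). The fit was tested on simulated data with 200 changed genes. Promoters were RefSeq's on GRCm38.p6, as were gene symbols.

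The Krtap members, classes and marker lists were chosen with earlier results of these data known. By rule, the called genes, the 2 brightest and the 2 nearest 0 in each class are given in full, with up to 4 called or else 2 members of other lists named.

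Litter pairs come from the design text, which pairs littermates. Same-numbered arrays also deviated together from their group means, with correlations over 12821 genes of 0.337, 0.372 and 0.550 in pairs 1, 2 and 3. Unmatched arrays on the first slide had 0.194 (AhRCA 1 with WT 2) and 0.150 (AhRCA 2 with WT 1). Arrays on different slides had -0.416 to -0.356. Pair 3 was alone on its slide, and the part of the slide in these values was not tested. Alternatives were other scalings, background correction, filters, probe rules, blocks, the authors' table and leaving out each array. The normexp alternative used the median spot signal, since no mean signal column was used here. The number of arrays limits the precision.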

Additional observations from a re-analysis of the deposited data

Results flagged for a closer look

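In 2 of the 31 Krtap genes tested, litter pair 3, the only pair on the second slide, had the opposite sign to both pairs on the first slide. For Krtap3-2 the AhRCA minus WT difference was -0.16 log2 units in pair 3, against 0.91 and 1.25 in pairs 1 and 2. For Krtap6-2 it was 0.31 in pair 3, against -1.45 and -2.84 in pairs 1 and 2, and its probe was well above background on 1 AhRCA array and 2 WT arrays. The interaction of genotype and slide (limma) had unadjusted p of 0.194 for Krtap3-2 and 0.0220 for Krtap6-2, and over all genes the smallest adjusted p of any Krtap gene was 0.492.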

How the results depend on the processing

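The count of Krtap genes lower in AhRCA epidermis, 15 as reported, was 18 with the median as the scale (1.33% of all genes tested), 16 with quantile normalization (1.61%), 14 with normexp (1.35%), 14 of 22 when detection on all 6 arrays was asked (1.39%), 16 when all probes of a gene were averaged (1.71%) and 15 in the authors' deposited table (1.65%). Normexp lost Krtap1-5, Krtap14, Krtap19-9b and Krtap2-4 and gained Krtap16-3, Krtap4-7 and Krtap8-1. The count was 1 of 40 with no filter on dim probes (0.532%) and 6 of 35 with every probe fitted on its own (0.812%). Within slide 1 it was 1, Krtap7-1, which was well above background on no AhRCA array. Leaving out 1 array gave 0 to 11 calls. The litter pair as a replicate block gave 18 and the slide as a block 14, and the block's changes of call are those given in the report. In none of these fits was a Krtap gene higher after adjustment. Under normexp the median log2 fold change was -1.34 for all Krtap genes, -0.72 for high sulfur, -1.50 for ultrahigh sulfur and -1.0 for glycine-tyrosine genes, and with detection on all 6 arrays that of the high sulfur genes was -1.61; the cause was not tested. Without 1 array these medians ran from -2.30 to -1.81, -2.59 to -1.87, -2.29 to -1.78 and -2.29 to -1.82 in the same order of sets. Krtap3-1 on its brightest probe (-0.10) ran from -0.32 to 0.0255 when 1 array was left out, and changed sign to 0.0083 without AhRCA 1, 0.0192 without AhRCA 2 and 0.0255 without WT 3. Krtap5-2 lost its call within slide 1 (adjusted p = 0.0571) and, of the fits without 1 array, in those without AhRCA 1 or AhRCA 2 (adjusted p of at most 0.0671), while Krtap5-1 and Krtap5-4 lost theirs in each of the 6 such fits. Using the dimmest kept probe of each gene, an alternative chosen after the data were seen, gave 17 calls (1.66%) and added Krtap3-1 and Krtap8-1. Krtap16-3 counted in either candidate class, also chosen then, moved that class's median by less than its SD over litter pairs. Classes by amino acid composition were not run. Signals near background limit Krtap14, Krtap19-9b and Krtap7-1 to bounds.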
